A study of Homo sapiens with 3 samples.

Results

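Mitochondrial ribosomal protein genes were followed in 3 RNA libraries from HEK293, a human cell line that goes back to embryonic kidney cells transformed with adenovirus DNA. Members were all gene names made of MRPL or MRPS, a number and at most 1 letter from A to C, whatever their counts. This gave 77 of the 26485 names in the tables, with 48 in the large subunit (MRPL) and 29 in the small subunit (MRPS). All 3 libraries belonged to 1 group of cells kept in DMEM with fetal calf serum, with no second genotype or treatment to compare, and the labels do not say whether they came from separate cultures. Every spread below is therefore a spread between these 3 samples and may be technical. Unless stated otherwise, p-values set the differences between these samples against counting noise, and such differences may also be technical. Binomial intervals cover counting error within a library. The sample titles call the libraries mRNA sequencing, while the protocol describes depletion of ribosomal RNA from total RNA. Comparisons between the subunits, between members and between libraries were open to this design.

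The mitochondrial ribosome makes the few respiratory chain proteins that mitochondrial DNA encodes. Its ribosomal RNAs come from mitochondrial DNA, but all of its proteins are encoded in the nucleus, made in the cytosol and imported. Some of these proteins descend from bacterial ribosomal proteins, and others were added during the evolution of mitochondria and have no bacterial counterpart. In solved structures MRPS18A and MRPS30 sit in the large subunit despite their names, and MRPS36 is a component of the 2-oxoglutarate dehydrogenase complex.

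Gene-assigned counts were few and ranged from 289241 to 483114 per library, between 1.76% and 2.48% of all records in the tables. A single count was worth 2.29 to 3.30 CPM (counts per 1000000 of the TMM-scaled library size). A member without a count could thus lie anywhere below 3 counts, or 6.86 to 9.89 CPM, and that limit covers counting error only. The protocol names a kit that keeps the strand of the transcript, but the sources used here do not give the strand setting of the counting. Where a member shares exon sequence with a gene on the other strand, its counts cannot be assigned to either transcript, and all values below are counts under a gene name. With the strand setting unknown, a lack of counts sets no upper limit on the transcript of any member. Of 6 markers listed for this line, LIN28A, KRT8, LIN28B and VIM had counts in every library, KRT18 had 1, 0 and 0, and PAX2 had none.

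Short stretches of the start regions are shown for 3 members that lie back to back with another gene, an arrangement to which the counts below are compared. The 3 were picked because each carries a motif letter string. Other members with such a start, among them MRPS18C and MRPS11, had no NRF1-, ETS- or YY1-type match. Each stretch runs from 100 bases before to 20 bases after the RefSeq start on the strand of the member (GRCh38.p14). Capitals mark 1 match to the motif letter string. NRF1, ETS-family factors and YY1 are transcription factors known for acting on nuclear genes of mitochondrial proteins. MRPL57 lies at chr13:21176558-21176677 on the plus strand and its capitals match an NRF1-type string in which the sixth letter may be any base. MRPS34 lies at chr16:1773115-1773234 on the minus strand and its capitals are the ETS-type string CCGGAAGT read from the other strand. MRPL46 lies at chr15:88467369-88467488 on the minus strand and its capitals are the YY1-type string as searched.
MRPL57: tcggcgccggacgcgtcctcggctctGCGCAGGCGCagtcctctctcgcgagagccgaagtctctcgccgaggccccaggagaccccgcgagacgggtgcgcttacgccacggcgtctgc
MRPS34: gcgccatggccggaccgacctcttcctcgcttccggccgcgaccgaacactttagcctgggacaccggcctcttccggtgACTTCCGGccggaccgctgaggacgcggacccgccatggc
MRPL46: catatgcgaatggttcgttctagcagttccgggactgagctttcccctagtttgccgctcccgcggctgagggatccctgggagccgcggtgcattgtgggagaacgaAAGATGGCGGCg

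RefSeq start windows (250 bases before to 50 after the start) were matched by symbol for 68 of the 77 members, and each string was searched on both strands. The YY1-type string occurred in 10 of 68 windows, 14.7%, against 1.37% of the 15843 windows of protein-coding genes and 0.916% of all 27305 windows. These 10 members were MRPL22, MRPL36, MRPL38, MRPL46, MRPL50, MRPS10, MRPS18A, MRPS18B, MRPS24 and MRPS30. The ETS-type string occurred in 11 windows, 16.2%, against 6.19% of protein-coding windows, and the NRF1-type string in 8 windows, 11.8%, against 8.58%. The letters GGGGCGGGG of an SP1-type site were in 25.0% of member windows and 22.4% of protein-coding windows, and TATAAA was in 2.94% and 9.63%. A match describes letters in these windows and not a bound site, and an absence says nothing of a factor.

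The members together received 743, 774 and 550 counts in replicates 1, 2 and 3. This was 0.177% ± 0.0153 (SD, n = 3) of gene-assigned counts, with exact binomial 95% intervals of 0.168% to 0.194%, 0.149% to 0.172% and 0.175% to 0.207%. The intervals of replicates 2 and 3 do not overlap, so their shares differed by more than counting error. After TMM scaling the sum was 1698, 1784 and 1813 CPM, and the libraries lay closer together. The TMM factor was 0.898 for replicate 2, against 1.06 and 1.05 for replicates 1 and 3. In such bulk samples, fewer cells with a transcript and less of it per cell cannot be told apart. Counts were concentrated, because the 4 members with the highest mean CPM held 61.8% ± 4.76 (SD, n = 3) of all member counts. In contrast, 56 of the 77 members had fewer than 10 counts over all 3 libraries together. Low totals were general, with a median total of 4 counts for members, 1 for all names and 2 for protein-coding names.

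A count in every library was reached by 24 members, 31.2%, against 29.2% of all names and 33.4% of the 19075 protein-coding names matched to the annotation, which is near the background. A level of 10 counts or more in each of the 3 libraries was reached by 9 members, 11.7%, against 9.68% of all names and 10.6% of protein-coding names. A further 19 members had counts in 2 libraries and 22 in 1 library. The remaining 12 of 77 had none, against 45.3% of all names and 37.3% of protein-coding names. The 22 members seen in 1 library had at most 9 counts there. MRPL27, a large-subunit protein with a bacterial homologue, was 1 of them, with 0, 0 and 5 counts.

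**Figure D1:**
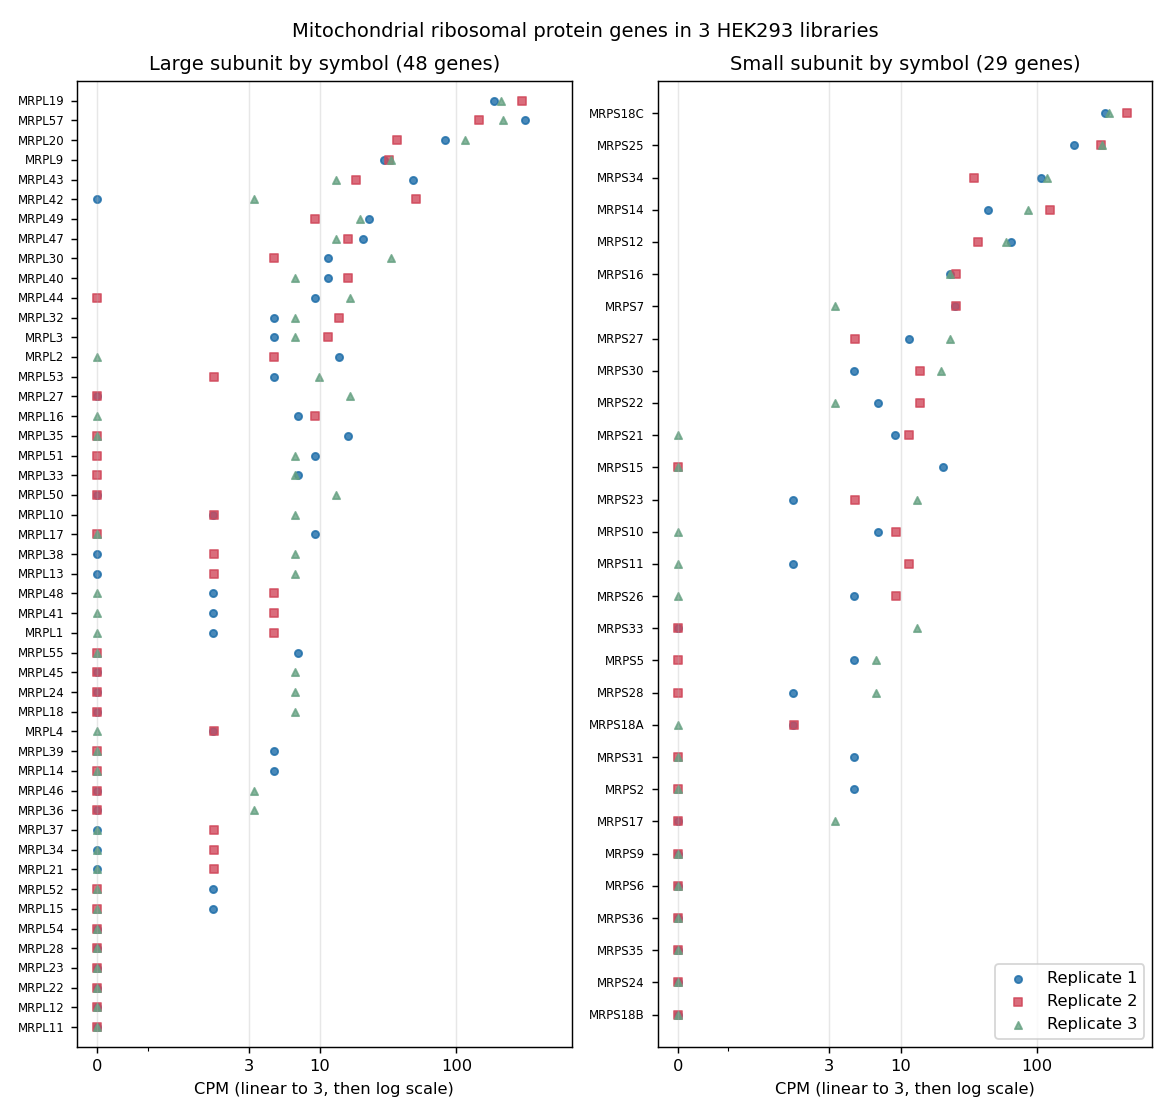
CPM of each of the 77 members in the 3 HEK293 libraries (x axis, linear up to 3 CPM and logarithmic above), with 1 symbol per library and members ordered by mean CPM within the large and small subunit (y axis). Of the 77 members, 56 have fewer than 10 counts over the 3 libraries together, and 6 members of each subunit are at 0 in all 3 libraries. The median total is 4 counts for members and 1 for all names.

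The large-subunit members with 10 or more counts in each library were MRPL19, MRPL57, MRPL20 and MRPL9. MRPL19, homologue of bacterial L19, had 82, 132 and 64 counts, or 187, 304 and 211 CPM, highest in replicate 2. MRPL57, a small protein without a bacterial counterpart, had 139, 64 and 67 counts, or 318, 148 and 221 CPM, lowest in replicate 2. MRPL20, homologue of a bacterial protein that acts early in large-subunit assembly, had 36, 16 and 35 counts, or 82.3, 36.9 and 115 CPM, again lowest in replicate 2. Among the members with at least 10 counts in every library MRPL9, homologue of bacterial L9, was the steadiest, with 13, 14 and 10 counts or 31.6 ± 1.71 CPM (SD, n = 3).

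Further down, MRPL43 had 21, 8 and 4 counts, highest in replicate 1. MRPL42 had 0, 22 and 1 counts, so its mean of 18.0 CPM came almost wholly from replicate 2. Both proteins are specific to mitochondria. MRPL49 had 10, 4 and 6 counts, MRPL47 had 9, 7 and 4, and MRPL30 had 5, 2 and 10. These values overlapped between members, and the remaining large-subunit members had at most 7 counts in any library. MRPL45, which lies at the tunnel exit facing the inner membrane, had 0, 0 and 2 counts.

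MRPL11, MRPL12, MRPL22, MRPL23, MRPL28 and MRPL54 had no count in any library. MRPL12 forms the flexible stalk that recruits translation factors, MRPL11 lies at the base of that stalk, and MRPL22 and MRPL23 lie at the tunnel through which the new chain leaves. Each could still be present below the 3-count value of its library. That value covers counting error under the gene name only and, with the strand setting unknown, does not limit the transcript.

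Small-subunit counts were led by MRPS18C and MRPS25. MRPS18C, a homologue of bacterial S18, had 138, 198 and 102 counts, or 315, 456 and 336 CPM. MRPS25, which has no bacterial counterpart, had 81, 127 and 91 counts, or 259 ± 64.3 CPM (SD, n = 3). MRPS18C was highest in replicate 2, whereas MRPS25 was low in replicate 1 and near-equal in the others once scaled to library size.

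MRPS34, a mitochondria-specific protein needed for a stable small subunit, had 47, 15 and 36 counts, or 107, 34.6 and 119 CPM. MRPS14, homologue of bacterial S14, had 19, 54 and 26 counts, or 43.4, 124 and 85.7 CPM. These members took opposite places in replicate 2, where MRPS34 was lowest and MRPS14 highest. MRPS12, homologue of the bacterial decoding-site protein S12, had 28, 16 and 18 counts or 53.4 ± 14.5 CPM, and MRPS16 had 10, 11 and 7 counts or 23.8 ± 1.38 CPM (SD, n = 3 each). MRPS7, which lies in the head of the small subunit, had 11, 11 and 1 counts and was low in replicate 3.

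MRPS6, MRPS9, MRPS18B, MRPS24, MRPS35 and MRPS36 had no count. The members named MRPS18 thus differed in counts by name, with MRPS18A at 1, 1 and 0 counts, MRPS18B at none and MRPS18C above 100 in each library. MRPS18C and MRPS18A share 1956 and 604 exonic bases with genes on the other strand, and MRPS18B shares none. Counts of MRPS18C and MRPS18A therefore cannot be assigned to their transcripts. In the classes below MRPS18C is counted with the bacterial homologues and MRPS18B with the proteins specific to mitochondria, and MRPS18A is in neither.

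Per kilobase of merged exon, the order of levels was led by MRPL57 with 102 ± 38.0, MRPS34 with 79.2 ± 41.6 and MRPS18C with 75.9 ± 15.6 CPM per kilobase (SD, n = 3 each), which did not differ beyond their spread. MRPL19 at 50.9 ± 13.4 and MRPS25 at 48.2 ± 11.9 CPM per kilobase formed the next pair and lay within their spread of each other. MRPS14, MRPL20 and MRPS12 followed between 32.6 and 24.9 CPM per kilobase, again with overlapping spreads, then MRPL9 at 17.5 ± 0.943 and MRPL47 at 12.1 ± 2.72. The lengths merge all annotated transcripts of a gene and may exceed the transcripts these cells use. The top 5 per kilobase thus held both subunits.

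The subunits were then set against each other in each library. Large-subunit members held 49.9%, 39.7% and 44.0% of member counts in replicates 1, 2 and 3, or 44.5% ± 5.15 (SD, n = 3), although they are 48 of the 77 genes. Exact binomial 95% intervals were 46.3% to 53.6%, 36.2% to 43.2% and 39.8% to 48.3%, so replicates 1 and 2 differed by more than counting error. The summed level was 784 ± 71.1 CPM for the large and 981 ± 117 CPM for the small subunit (SD, n = 3 each). The small subunit was the higher in replicates 2 and 3, and in replicate 1 the sums were nearly equal at 848 and 850 CPM. Over the members with no opposite-strand exon the direction turned, with 402 counts on 31 large-subunit and 164 on 17 small-subunit members and a large-subunit share of 71.1%. MRPL57 alone held 270 of these 402 counts, and over the 3 libraries together the turn depended on this 1 gene.

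The share moved with single members. Without MRPS18C the large subunit held 56.2%, without MRPL57 it held 36.3% and without the 4 highest members together it held 47.5%. Moving MRPS18A and MRPS30 to the large subunit and leaving out MRPS36 gave 45.3%, and division by exon length gave 48.3%. For the usual member, the median of log2((CPM + 0.5) per kilobase) differed between large and small by -0.35, -0.24 and 0.50 in the 3 libraries, a mean of -0.03 ± 0.46 (SD, n = 3). The medians themselves lay at 2.29 to 3.30 CPM for the large and 3.30 to 4.61 CPM for the small subunit, below the 3-count value, so a difference of the usual member was not detectable at this depth.

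**Figure D2:**
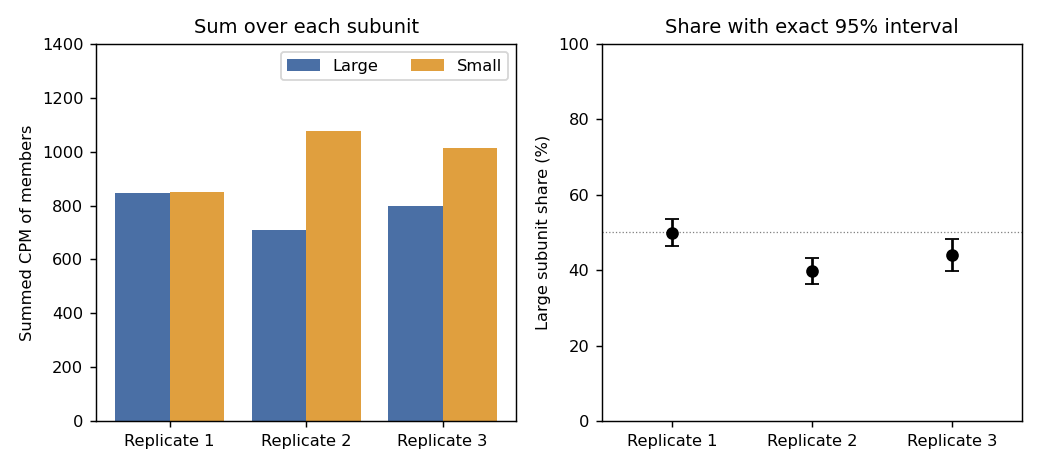
Left, CPM summed over the 48 large-subunit and 29 small-subunit members in each library (y axis; bars start at 0 and show single libraries, with no error). Right, share of member counts held by the large subunit with its exact binomial 95% interval; the share is 49.9%, 39.7% and 44.0% in replicates 1 to 3, and the dotted line marks equality.

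By structural class, the 30 large-subunit members with a bacterial homologue summed to 445 ± 29.1 CPM and the 18 specific to mitochondria to 340 ± 88.8 CPM. In the small subunit, 16 members with a bacterial homologue summed to 582 ± 103 CPM and 10 specific to mitochondria to 384 ± 77.5 CPM (SD, n = 3 each). MRPL19, MRPL20 and MRPL9 led the first class, MRPL57, MRPL43 and MRPL42 the second, MRPS18C, MRPS14 and MRPS12 the third, and MRPS25, MRPS34 and MRPS27 the last. In these classes 3 of 30, 1 of 18, 3 of 16 and 2 of 10 members had 10 or more counts in each library, against 10.6% of protein-coding names.

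Most member counts fell on genes that lie opposite another gene. In GENCODE release 29, 29 of the 77 members, 37.7%, had an exon overlapping an exon of a gene on the other strand, against 34.2% of protein-coding names. These 29 members held 72.3% ± 7.73 (SD, n = 3) of member counts, with 65.5%, 80.7% and 70.7% in the 3 libraries, and names of that kind held 76.0% ± 1.29 (SD, n = 3) of all counts on protein-coding names. Of the 29, 7 had 10 or more counts in each library, 24.1% against 21.6% of protein-coding names of that kind, and of the other 48 members 2 did, 4.17% against 4.93%. A count in every library was found for 15 of the 29, 51.7% against 49.8%, and for 9 of the 48, 18.8% against 24.8%. No count was found for 3 of the 29, against 23.6%, and for 9 of the 48, against 44.4%. Members were thus near protein-coding names of the same kind at the higher levels, and fewer of them were without any count.

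Of 11 members with a divergent protein-coding start but no opposite-strand exon, 2 had 10 or more counts in each library, against 6.78% of protein-coding names of that kind. These were MRPL57 and MRPS34. The annotated starts of MRPL57 and SKA3, a kinetochore gene, were 43 bases apart, and those of MRPS34 and EME2, an endonuclease subunit gene, 52 bases apart. SKA3 itself had 6, 3 and 0 counts and EME2 had 0, 2 and 0. In RefSeq the span of EME2 reaches into MRPS34 on the other strand, and no opposite gene overlaps MRPL57. GENCODE lists 5 pseudogenes named after MRPL57, and reads shared with such copies may be missing from its count.

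Counted over all members, 15 of 77, 19.5%, had a divergent protein-coding start within 500 bases, against 6.72% of protein-coding names. MRPL46 and MRPS11, a large- and a small-subunit gene, formed such a pair with starts 34 bases apart, and they had 0, 0 and 1 counts and 1, 5 and 0 counts. MRPL18 had 0, 0 and 2 counts beside the chaperonin gene TCP1 with 1147, 1054 and 867, and MRPL27 had 0, 0 and 5 beside the endonuclease gene EME1 with 157, 178 and 134. A divergent start thus came with high counts under some members' names and few under others. Of the 37 members with neither an opposite-strand exon nor such a start, 0 had 10 or more counts in each library, against 4.79% of protein-coding names of that kind, and their counts came to 162 of 2067. MRPL42 led these 37, from 1 library.

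**Figure D3:**
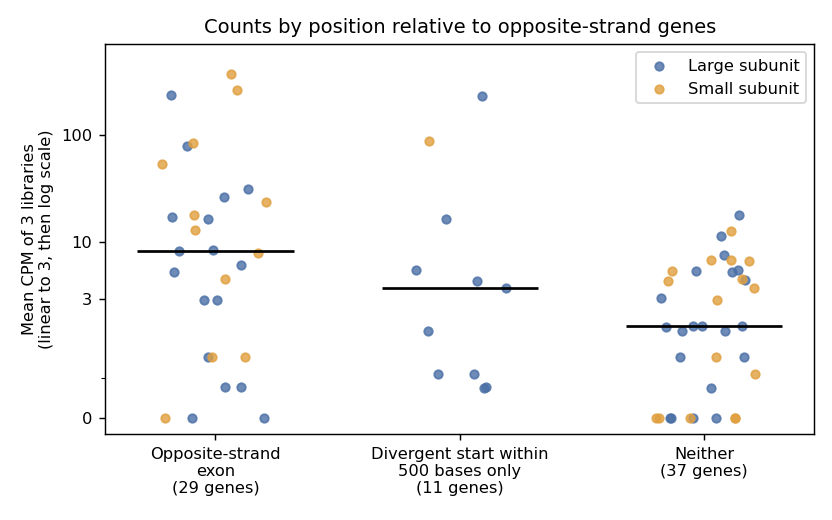
Mean CPM over 3 libraries (y axis, linear up to 3 and logarithmic above) of members grouped by their position relative to genes on the other strand in GENCODE release 29; each point is 1 member, coloured by subunit, and the line is the median. The medians are 8.33, 3.73 and 2.30 CPM for 29, 11 and 37 members, and the points above 30 CPM lie in the first 2 groups.

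The opposite genes often had more counts than the members. The 29 members formed 39 pairs with opposite genes, and the opposite gene could be found in the tables for 28 pairs. The opposite gene had the higher count in all 3 libraries in 16 of these 28, against 33.4% of the 4632 such pairs of protein-coding names, and the member in 3. Per kilobase of exon the numbers were also 16 and 3, against 35.3%. Over the members and partners concerned, 1394 counts fell on 24 members and 11776 on their opposite genes, a ratio of 9.43, 7.52 and 8.78 in replicates 1, 2 and 3. This ratio leaned on a few opposite genes, led by NR2C2 with 1602, 2082 and 1210 counts and FAM175A with 1031, 1107 and 825. The same ratio for other protein-coding pairs is not given here.

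The order differed by how the genes overlapped. Where the genes overlapped at their 3' ends, the opposite gene was higher in all libraries in 10 of 11 pairs, against 36.2% of tail-to-tail pairs of protein-coding names, and in 9 of 11 per kilobase, against 37.4%. Where they overlapped at their 5' ends it was higher in 3 of 12 pairs, against 30.4%, and in 4 of 12 per kilobase, against 32.4%. In these 12 pairs the member was higher in 3 by counts and in 2 per kilobase. Some pairs share a member, and the difference between arrangements was not tested. An opposite gene can be higher in every library only with a count in each, which 49.8% of protein-coding names with an opposite-strand exon had. Pairs with few counts thus lower the shares given for protein-coding names. Among the 10, MRPS9 and MRPL23 had no count, and MRPS18A had 1, 1 and 0 against 2, 7 and 7 for RSPH9. The overlaps are those of GENCODE. RefSeq spans list no opposite gene for MRPL11, MRPL19, MRPL32, MRPL47, MRPL51, MRPS12, MRPS14, MRPS22 and MRPS27. Genes without a RefSeq start entry were left out of those spans.

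MRPS25 lies on chromosome 3 from 15042460 to 15065335 on the minus strand and shares 1197 exonic bases at its 3' end with NR2C2, a nuclear receptor gene. NR2C2 had 1602, 2082 and 1210 counts against 81, 127 and 91 for MRPS25. MRPS18C lies on chromosome 4 from 83455932 to 83469735 on the plus strand and shares 1956 exonic bases with ABRAXAS1, listed under its older name FAM175A, a gene of a DNA repair complex. FAM175A had 1031, 1107 and 825 counts against 138, 198 and 102. In both pairs every library of the opposite gene lay far above every library of the member.

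MRPS14 shares 351 exonic bases with CACYBP, a calcyclin-binding protein gene, on chromosome 1, and CACYBP had 152, 194 and 96 counts against 19, 54 and 26. MRPL9 shares 333 with OAZ3, a germ-cell ornithine decarboxylase antizyme gene, and OAZ3 had 447, 310 and 244 counts against 13, 14 and 10. MRPS16 lies within DNAJC9-AS1, which had 21, 17 and 24 counts against 10, 11 and 7, and MRPL43 shares 1170 with SEMA4G, a semaphorin gene, which had 115, 53 and 65 counts against 21, 8 and 4. Each of these opposite genes had more counts than the member in every library. Of these 4 members, MRPS14 had no opposite gene by RefSeq spans.

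MRPL19 was the exception among pairs that overlap at the 3' end. It lies on chromosome 2 from 75646783 to 75690851 and shares 132 exonic bases with GCFC2, and GCFC2 had 86, 141 and 55 counts against 82, 132 and 64. The counts of these genes were close in each library, and per kilobase of exon MRPL19 was the higher in all 3. MRPS12, on chromosome 19 from 38930548 to 38933162, overlaps at its 5' end with SARS2, the mitochondrial seryl-tRNA synthetase gene. SARS2 had 2, 1 and 1 counts against 28, 16 and 18, so here the ribosomal gene was the higher in every library. The member was also the higher in MRPL49 against FAU and in MRPS27 against PTCD2, although MRPL49 was not per kilobase. The gene opposite MRPL20, a non-coding gene sharing 139 bases, was not analysed here. By RefSeq spans MRPL19, MRPS12 and MRPS27 had no opposite gene.

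Members without a count also had counted opposite genes. MRPS9 had none in any library, and UTAT33, a non-coding gene sharing 170 exonic bases with it, had 292, 277 and 225 counts. MRPL11 had none, against 26, 8 and 6 for PELI3, a ubiquitin ligase gene. MRPL23 had none, against 14, 4 and 6 for MRPL23-AS1. MRPL34 had a single count and lies within the span of ABHD8, which had 134, 59 and 79. These are counts by name, and which strand they came from was not tested.

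**Figure D4:**
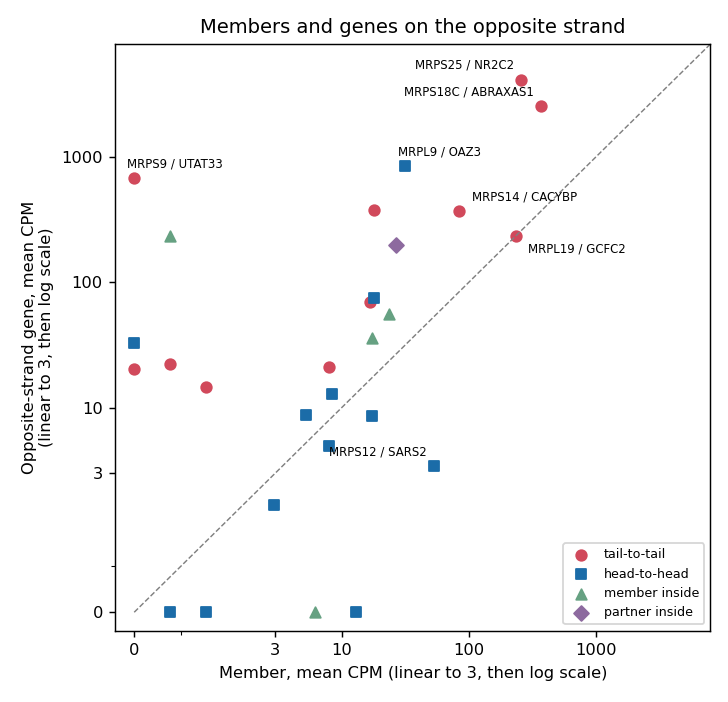
Mean CPM of a member (x axis) and of the gene whose exons overlap it on the other strand (y axis), both linear up to 3 and logarithmic above, for the 28 pairs found in the tables; symbols give the arrangement and the dashed line marks equal values. Of 11 pairs that overlap at the 3' end, 10 have the opposite gene higher in all 3 libraries, and MRPL19 with GCFC2 lies on the line.

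Variation between libraries beyond counting noise was tested for the 9 members with 10 or more counts in each. This used edgeR's Poisson fit over all 2564 such genes with Benjamini-Hochberg adjustment. Of the 9, 7 had an adjusted p under 0.05, against 45.8% of all genes tested. MRPL57 (adjusted p = 7.5e-06) and MRPS34 (7.4e-05) had the lowest adjusted p, followed by MRPS14 (0.00065), MRPL20 (0.0012), MRPS25 (0.0036), MRPL19 (0.0043) and MRPS18C (0.0055), each by edgeR's Poisson fit. MRPS12 (0.25) and MRPL9 (0.97) did not pass. This p depends on the count as well as the spread, and the coefficient of variation beyond counting noise was 0.496 for MRPS34, 0.469 for MRPL20, 0.446 for MRPS14 and 0.358 for MRPL57. For the other members that passed it was 0.242 for MRPL19, 0.227 for MRPS25 and 0.188 for MRPS18C. These lay below edgeR's common coefficient of 0.276 over all 2564 genes tested. The log2 ratio of replicate 2 to the mean of the other libraries was -0.87 for MRPL57, -1.71 for MRPS34 and -1.42 for MRPL20, and 0.95 for MRPS14, 0.61 for MRPL19 and 0.49 for MRPS18C. MRPS25 instead was low in replicate 1, with 185 CPM.

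Replicate 2 stood at an end in many genes of the whole table, highest in 579 and lowest in 435 of the 1175 genes that varied. Without replicate 2, MRPS25 alone of 9 tested members passed, against 9.45% of all genes tested, and without replicate 1, 3 of 9 did (MRPL20, MRPS18C and MRPS34), against 28.9%. Scaled by total counts instead of TMM, MRPL19 and MRPS18C did not pass (adjusted p = 0.11 and 0.23, edgeR's Poisson fit). Against a negative binomial spread at the common coefficient of variation of 0.276, 0 of 9 members and 0 of 2564 genes passed with edgeR, and 1 of 9 and 135 of 2564 had an unadjusted p under 0.05. With no count filter, 15 of the 65 members with a count varied, against 20.1% of all genes.

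**Figure D5:**
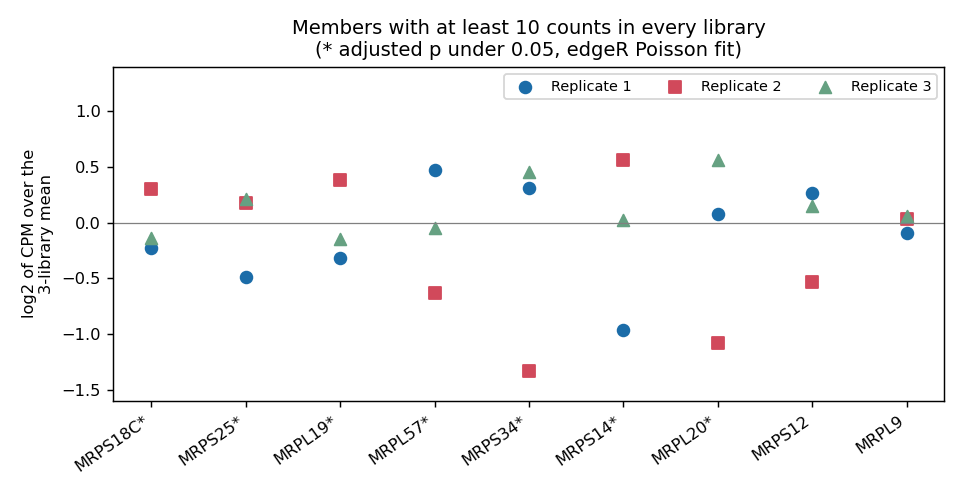
Log2 of the CPM in each library over the 3-library mean (y axis) for the 9 members with at least 10 counts in every library, ordered by mean CPM; symbols are libraries and an asterisk marks an adjusted p under 0.05. Replicate 2 is lowest for MRPL57, MRPS34 and MRPL20 and highest for MRPS18C, MRPL19 and MRPS14, and MRPL9 hardly moves.

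Other genes of mitochondrial translation were read from lists made for this purpose. Mitoribosomal proteins without an MRP symbol had 1 of 6 names at 10 or more counts in every library, against 10.6% of protein-coding names. This was the RNA-binding protein gene PTCD3 with 23, 27 and 13 counts. DAP3, a GTP-binding small-subunit protein, had 13, 0 and 5 counts, and CHCHD1 had none. ICT1, the ribosome rescue factor built into the large subunit and now named MRPL58, had 2, 0 and 0.

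A level of 10 counts in every library was reached by 9.68% of all names and 10.6% of protein-coding names. Of 15 mitochondrial translation factors, 7 reached 10 counts in every library, led by the ribosome recycling factor GFM2 at 1412 ± 260 CPM, the release factor MTRF1L at 1324 ± 247 CPM and the initiation factor MTIF3 at 330 ± 35.2 CPM (SD, n = 3 each). Of 20 mitochondrial tRNA charging enzymes, 4 did so, led by the amidotransferase subunit GATC at 2654 ± 317 CPM, then the synthetase WARS2 at 364 ± 81.9 CPM (SD, n = 3 each). Of 26 assembly and RNA modification factors, 6 did so, led by the helicase DDX28 at 186 ± 28.8 CPM, the methyltransferase METTL15 at 94.5 ± 13.4 CPM and the methyltransferase NSUN4 at 66.8 ± 4.44 CPM (SD, n = 3 each). Of the leading genes named for these 3 lists, NSUN4 alone had no opposite-strand exon. Such an exon was present in 9 of the 15, 10 of the 20 and 15 of the 26, against 34.2% of protein-coding names. Among the genes with it, 6 of 9, 3 of 10 and 4 of 15 reached 10 counts in every library. For protein-coding names with such an exon the share was 21.6%. Variation between libraries was called by edgeR's Poisson fit in 4 of 7 factors (GFM2, MTRF1L, C12orf65 and GUF1), 3 of 4 charging enzymes (WARS2, YARS2 and GATC), 1 of 6 assembly factors (WBSCR16) and 0 of 1 of the remaining list, against 45.8% of all genes tested.

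Names close to members were few. The pseudogene MRPS31P5 had 6, 9 and 3 counts against 2, 0 and 0 for MRPS31, while MRPL42P5 and MRPL45P2 had none. GENCODE names 75 pseudogenes after members, led by 8 for MRPS21. The 34 members with such a copy had a median of 5.29 CPM and the 43 without had 2.96 CPM, both below the 3-count value. Values of members with near-identical copies are uncertain because the tables list up to 7.51% of records as not aligned uniquely, outside any gene.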

How the data were processed

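The deposited tables held raw counts per gene symbol, 1 table per library, made by the authors by trimming (Trimmomatic), alignment to hg38 (TopHat2, noted as 2.2.5) and counting (HTSeq 0.11.2), per the submitters' processing notes. The sources used here do not give the annotation, strand option or filters. Library sizes exclude the counter's 5 summary lines. Of all records, 90.6% to 91.5% lay in no feature, which limits depth.

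CPM used TMM effective library sizes (edgeR 4.0.16, R 4.3.3). Variation was tested over all genes with 10 or more counts in each library by edgeR's model with an intercept and a dispersion of 0, its deviance against a chi-square distribution and Benjamini-Hochberg adjustment. The test was also run on simulated Poisson counts with some genes changed on purpose. Those counts hold no added spread between replicates, so that run does not show how the test behaves under such spread. DESeq2 1.42.0 size factors were an alternative. Names were matched to GENCODE 29 (23900 directly, 690 through older symbols, of 26485), a stand-in for the annotation used. Summaries used Python 3.11.15, pandas 2.3.3 and scipy 1.17.1.

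Members and lists were chosen with earlier results of these data known. Named were the 12 members with the highest mean CPM, members that varied, members without a count, the 3 highest of each class and list, the members named MRPS18 and opposite genes; 1 gene of a list is not reported here. Others were chosen after their values were seen, as were the divergent-start and motif descriptions.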

Additional observations from a re-analysis of the deposited data

How the results depend on the processing

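No paired analysis was possible because all libraries form 1 group. The number of members that varied between libraries was 7 of 9 with DESeq2 size factors or a Pearson statistic (47.5% and 45.3% of all genes tested), 5 of 9 with total counts (46.7%), 15 of 65 without a count filter (20.1%) and 0 of 9 against edgeR's negative binomial null (1 at an unadjusted p under 0.05). It was 1 to 7 when a replicate was left out, against 9.45% to 34.3% of all genes tested. The large-subunit share of member counts moved from 44.5% to 56.2% without the highest member, 71.1% over members with no opposite-strand exon and 36.3% without MRPL57 (chosen after seeing the data), and was 41.8% to 47.0% without a replicate. Behind the 71.1%, MRPL57 alone held 270 of the 402 large-subunit counts. The members' share of gene-assigned counts was 0.224% with the most counted gene removed and 0.170% to 0.185% without a replicate. A minimum of 3 counts in each library left 13 members, 16.9%, against 18.8% of all names and 21.4% of protein-coding names. A count in each remaining library was reached by 27 to 35 members when a replicate was left out. The share of all names for that setting is not given here. The share on members opposite another gene was 53.3% with RefSeq spans (chosen after seeing the data, leaving out 9 members without an entry), 71.7% with at least 100 bases of overlap, 65.3% without the highest member and 68.1% to 75.7% without a replicate. The difference of the subunit medians was -0.58 when not divided by length, 0.18 with a prior of 2 CPM and -0.30 to 0.13 without a replicate, so its sign was not fixed. Depth limits every statement on members under 10 counts.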
